A study of Mus musculus with 8 samples.

Results

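The transcript levels of 10 regulators of cardiac fuel and mitochondrial metabolism were examined in mouse hearts. They are the nuclear receptors Ppara, Ppard and Rxra, the coactivators Ppargc1a and Ppargc1b, the muscle regulator Perm1, the estrogen-related receptors Esrra, Esrrb and Esrrg, and the transcription factor Nrf1. The members were chosen by name, as components of one regulatory circuit, and make up 10 of the 55573 genes in the count table. All 10 passed the filter on low counts, as did 17411 genes in all. The hearts came from male db/db mice and, as controls, from male db/m mice, both 24 weeks old on the C57BLKS/J background, with 4 RNA-seq libraries per genotype. db/db mice are homozygous for a mutation of the leptin receptor gene in every cell of the body and become obese and diabetic. db/m mice carry 1 mutated copy and serve as lean controls. The mutation alters splicing of the receptor's long form, which counts per gene do not show. Library totals were between 19541757 and 22249911 counts. Whether each library is 1 animal is not stated in the labels, and the p-values below therefore weigh a difference against the spread of the libraries, part of which may be technical.

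PPARs (peroxisome proliferator-activated receptors) are nuclear receptors that bind fatty acids and their derivatives. Each sits on DNA as a pair with a retinoid X receptor such as RXR-alpha. In the heart, PPAR-alpha and PPAR-delta drive genes for fatty acid uptake and oxidation. The PGC-1 proteins do not bind DNA themselves and raise transcription by docking on PPARs, on ERRs (estrogen-related receptors, which have no known natural hormone) and on NRF1, nuclear respiratory factor 1. ERRs and NRF1 act on genes of the respiratory chain and of mitochondrial upkeep, and PERM1 is a striated-muscle protein induced by PGC-1 and ERRs.

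None of the 10 transcripts passed the test between db/db and db/m hearts. The test was the quasi-likelihood test of edgeR on the counts, with a threshold of 0.05 on the Benjamini-Hochberg adjusted p over all tested genes. In that test 0.00574% of all genes (1 gene) were called, and 0 of 10 members called is near that background. At an unadjusted p under 0.05 there were 2 of 10 members, Esrrb on the higher side in db/db and Ppard on the lower side, against 13.0% of all tested genes (5.12% higher and 7.84% lower). The same 2 members were those whose 4 db/db values did not overlap the 4 db/m values, against 9.65% of all genes. Log2 fold changes were positive for 4 of 10 members and for 47.7% of all genes, with a median of -0.11 over the members and -0.02 over all genes. DESeq2 called 2.17% of genes and limma-voom with sample weights 0.747%, each with 0 of 10 members. The lowest adjusted p of any member in 18 fits was 0.0628, for Ppard by limma-voom.

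A library of the control group stood apart and touches most of these values. In db/m replicate 3, 63.8% of the tested genes had their highest or lowest value among the 8 libraries, against 12.9% to 29.1% in each of the other libraries. The same library held an extreme of 7 of 10 members: the highest values of Ppara, Ppargc1b, Rxra and Nrf1, and the lowest of Esrra, Esrrb and Perm1. Its short genes were low and its long genes high. The median log2 deviation was -0.48 for genes up to 1848 bases of exon and 0.37 for genes from 6096 bases, against 0.05 to 0.18 and -0.13 to 0.02 in the other 7 libraries. Both db/m replicates 1 and 3 also carried adipocyte and atrial transcripts. Counts of the brown-fat gene Ucp1 were 0 in every db/db library and 1765, 2, 8220 and 0 in db/m libraries 1 to 4. Replicates 1 and 3 were above all of the other 6 libraries in 8 of 9 adipocyte, 5 of 7 brown adipocyte, 7 of 7 atrial, 4 of 4 smooth muscle, 4 of 6 fibroblast and 2 of 6 endothelial markers. Otop1, Retn, Adrb3 and Sln, which mark fat or atrium, also had 0 counts in every db/db library. Summed adipocyte markers were 305 to 608 CPM (counts scaled to a common library size, with TMM factors) in db/db and 312 to 1029 CPM in db/m. In db/db that sum was carried by Fabp4, with 5652 to 12936 counts per library. Adipoq had 0 to 2 counts there and Plin1 1 to 4. Summed atrial markers were 47.9 to 146 CPM in db/db and 40.0 to 3996 CPM in db/m. Brown adipocyte markers summed to 625 to 766 CPM in db/db and 654 to 1388 CPM in db/m, smooth muscle markers to 84.8 to 147 CPM in db/db and 183 to 708 CPM in db/m, and fibroblast markers to 929.7 to 1333 CPM in db/db and 969 to 1908 CPM in db/m. Kcnk3 carried the brown adipocyte sum in db/db, with 12389 to 13578 counts per library. Cardiomyocyte markers summed to 30263 to 36992 CPM in db/db and 28978 to 35021 CPM in db/m. That sum was carried by Myh6 and Actc1, and db/m replicate 3 had the lowest counts of 5 of the 8 markers. Counts there were 2827 for Myl2, against at least 13497 in the other libraries, and 10089 for Tnni3, against at least 23235, while Myh6 and Ryr2 were highest in it. The part of these differences in the values below was not tested, and results are given with and without these libraries. In whole tissue, fewer cells of a type and less RNA per cell cannot be told apart.

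Promoter sequences of 5 members are shown because the members differ in them and because each was scanned for sites of the circuit's own factors. They are the 250 bases before to 50 bases after the RefSeq transcript start on GRCm38.p6, printed 5′ to 3′ on the strand of the gene. Ppard and Esrrb are the members whose groups did not overlap, Ppara and Ppargc1a are the best-known receptor and coactivator of the circuit, and Esrra is the most abundant receptor per length. The windows are chr17:28232504-28232803 (+) for Ppard, chr12:86360867-86361166 (+) for the start of Esrrb at its first exon, chr15:85735526-85735825 (+) for Ppara, chr19:6921759-6922058 (-) for Esrra and chr5:51567676-51567975 (-) for Ppargc1a. Capitals mark the NRF1 core GCATGCGC, read on either strand, in Ppara and Esrra, and the cAMP half-site ACGTCA, read on either strand, in Ppargc1a.
Ppard: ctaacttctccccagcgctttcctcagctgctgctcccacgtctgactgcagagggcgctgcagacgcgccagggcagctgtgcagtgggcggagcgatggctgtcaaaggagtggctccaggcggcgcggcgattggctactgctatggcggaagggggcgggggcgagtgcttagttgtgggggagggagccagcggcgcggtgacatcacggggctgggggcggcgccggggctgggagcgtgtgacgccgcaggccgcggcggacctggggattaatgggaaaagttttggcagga
Esrrb: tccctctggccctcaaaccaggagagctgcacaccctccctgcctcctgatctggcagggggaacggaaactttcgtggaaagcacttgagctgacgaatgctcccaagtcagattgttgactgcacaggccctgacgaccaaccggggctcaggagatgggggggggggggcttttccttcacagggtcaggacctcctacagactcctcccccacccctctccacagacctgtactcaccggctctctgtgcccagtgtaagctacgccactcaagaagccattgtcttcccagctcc
Ppara: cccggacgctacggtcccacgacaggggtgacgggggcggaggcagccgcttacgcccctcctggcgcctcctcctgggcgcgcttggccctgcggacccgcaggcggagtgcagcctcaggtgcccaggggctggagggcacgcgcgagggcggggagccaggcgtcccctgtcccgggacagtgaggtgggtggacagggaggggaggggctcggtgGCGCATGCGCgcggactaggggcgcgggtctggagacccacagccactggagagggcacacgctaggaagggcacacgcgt
Esrra: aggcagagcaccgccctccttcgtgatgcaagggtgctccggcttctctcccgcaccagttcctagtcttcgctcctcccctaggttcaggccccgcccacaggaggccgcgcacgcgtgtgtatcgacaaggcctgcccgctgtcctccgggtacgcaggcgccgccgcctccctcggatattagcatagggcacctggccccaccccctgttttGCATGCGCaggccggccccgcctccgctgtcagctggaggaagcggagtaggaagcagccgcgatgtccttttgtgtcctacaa
Ppargc1a: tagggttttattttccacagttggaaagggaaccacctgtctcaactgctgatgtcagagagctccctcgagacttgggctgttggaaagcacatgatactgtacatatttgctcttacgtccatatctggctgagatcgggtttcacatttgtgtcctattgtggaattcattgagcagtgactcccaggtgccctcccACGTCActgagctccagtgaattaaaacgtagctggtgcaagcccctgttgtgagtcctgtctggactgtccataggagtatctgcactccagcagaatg

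In the Ppara promoter the core lay on the gene's strand from position -29 and on the other strand from position -31, and these 2 matches overlap. The Esrra promoter held it from position -34. The core was found in 2 of the 15 promoters of 9 members and in 2.71% of 32851 RefSeq promoters of 27025 genes. The cAMP half-site, the core of the element bound by CREB (a factor that switches on Ppargc1a in fasting liver and in exercised muscle), began at position -50 in Ppargc1a. It was found in 1 of 15 member promoters and in 7.51% of all promoters. An ERR half-site, TNAAGGTCA, was in 0 of 15 member promoters and 1.28% of all, and a PPAR element, an AGGTCA repeat with 1 base between, was in 0 of 15 and 0.040% of all. Both strands were searched in every case. The forms of the NRF1 core and of the cAMP half-site were chosen after these sequences had been seen. A match is a string in a window and was not related to the expression values. The promoters also differed in base composition, with a median of 7 CpG in 300 bases over all promoters. Ppara had 30, Ppard 27, Esrra 25, Ppargc1a 5 and Perm1 4, and both starts of Esrrb had 7. The 4 starts of Esrrg had 15 to 22. Rxra and Nrf1 have 2 starts each, with 55 and 1 CpG for Rxra and 43 and 2 for Nrf1. The G+C share was 74.7% in Ppara and 48.7% in Ppargc1a.

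Ppard, the widely expressed PPAR (ENSMUSG00000002250, chromosome 17, 28232700 to 28301474, plus strand, mm10), was the member with the smallest p. Its level was 38.5, 41.0, 38.8 and 43.8 CPM in db/db libraries 1 to 4, against 53.9, 54.6, 45.0 and 53.2 CPM in db/m libraries 1 to 4. Every db/db value lay below every db/m value, and the nearest db/m value was that of replicate 3. The means were 40.5 ± 2.43 CPM in db/db and 51.7 ± 4.47 CPM in db/m (SD, n = 4 each). On the log2 scale the fold change was -0.35 (SE 0.11), which is 0.784-fold with a 95% interval of 0.658 to 0.934. Its unadjusted p was 0.0114 and its edgeR adjusted p 0.297. Leaving out db/m replicate 3 gave a log2 fold change of -0.41 (adjusted p 0.0827), and leaving out db/m replicates 1 and 3 gave -0.42 (adjusted p 0.151). With each library's trend on gene length removed it was -0.23 (unadjusted p 0.160, adjusted p 0.506).

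Ppara, the fatty acid receptor that drives oxidation genes in heart and liver (ENSMUSG00000022383, chromosome 15, 85734983 to 85802819, plus strand), had 43.9, 28.8, 46.8 and 41.2 CPM in db/db libraries 1 to 4. In db/m libraries 1 to 4 it had 42.7, 49.4, 117 and 50.7 CPM. The groups overlapped, and db/m replicate 3 stood far above the other 7 libraries. Means were 40.2 ± 7.92 CPM in db/db and 64.8 ± 34.7 CPM in db/m. The log2 fold change of -0.69 (SE 0.31, adjusted p 0.386) rested on that library. It was -0.24 without db/m replicate 3 (adjusted p 0.544) and -0.32 without replicates 1 and 3 (adjusted p 0.536). In these 3 fits the 95% interval was -1.38 to 0.00, -0.57 to 0.10 and -0.69 to 0.04 on the log2 scale.

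Rxra, the common partner of PPARs on DNA (ENSMUSG00000015846, chromosome 2, 27676440 to 27762957, plus strand), ranged over 129 to 147 CPM in db/db and 131 to 168 CPM in db/m. The ranges overlapped, and db/m replicate 3 was the highest library. Its log2 fold change was -0.13 (SE 0.12, adjusted p 0.619), with an interval of 0.761 to 1.10-fold, and was -0.06 without db/m replicate 3 and -0.04 with the length trend removed. Among the receptors outside the members, Pparg, best known from fat cells, averaged 22.1 ± 5.27 CPM in db/db and 22.4 ± 6.63 CPM in db/m (log2 fold change -0.02, adjusted p 0.976). Its highest value, 31.1 CPM, was in db/m replicate 3, and its log2 fold change was 0.19 without that library and 0.24 without replicates 1 and 3. Rxrg, the retinoid X receptor of striated muscle, averaged 62.9 ± 5.63 CPM in db/db and 47.6 ± 22.0 CPM in db/m (log2 fold change 0.40, adjusted p 0.542). Its lowest value, 22.0 CPM, was in db/m replicate 3, without which its log2 fold change was 0.17, and it was -0.04 without replicates 1 and 3. Rxrb had a log2 fold change of -0.01 (adjusted p 0.974).

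Ppargc1a, the coactivator PGC-1-alpha (ENSMUSG00000029167, chromosome 5, 51454250 to 51567726, minus strand), had 137, 109, 135 and 116 CPM in db/db libraries 1 to 4, against 117, 153, 148 and 140.2 CPM in db/m libraries 1 to 4. Of the db/m libraries 2, 3 and 4 lay above every db/db library, and db/m replicate 1 lay within the db/db range. Means were 124 ± 13.7 CPM in db/db and 139 ± 16.2 CPM in db/m. Its log2 fold change was -0.17 (SE 0.13, adjusted p 0.576), with an interval of 0.724 to 1.10-fold, and was -0.11 without db/db replicate 2 and -0.06 with the length trend removed. Ppargc1b, which encodes the related coactivator PGC-1-beta (ENSMUSG00000033871, chromosome 18, 61298136 to 61400431, minus strand), had 26.2, 15.9, 23.0 and 19.48 CPM in db/db libraries 1 to 4 and 19.1, 24.3, 33.5 and 24.2 CPM in db/m libraries 1 to 4. Its groups overlapped, with the highest value in db/m replicate 3 and the lowest in db/db replicate 2. The fold change on the log2 scale was -0.26 (SE 0.21, adjusted p 0.569) in all libraries, -0.09 without db/m replicate 3 (adjusted p 0.871) and -0.14 without db/db replicate 2. Counts behind these values were 2173 to 3572 per library for Ppargc1a and 339 to 810 for Ppargc1b.

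Perm1 (ENSMUSG00000078486, chromosome 4, 156215868 to 156221307, plus strand) was the most abundant member, with 10923 to 13708 counts per library. It had 665, 546, 631 and 651 CPM in db/db libraries 1 to 4, and 480.3, 666, 453 and 588 CPM in db/m libraries 1 to 4. The low values were those of db/m replicates 1 and 3, and the other 2 db/m libraries lay within or just above the db/db range. Means were 623 ± 53.1 CPM in db/db and 547 ± 98.4 CPM in db/m. This gave a log2 fold change of 0.19 (SE 0.16, adjusted p 0.585). It was 0.30 without db/m replicate 2, 0.11 without db/m replicate 3 and -0.01 without replicates 1 and 3 (adjusted p 0.981), so that its direction depended on those libraries.

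**Figure D1:**
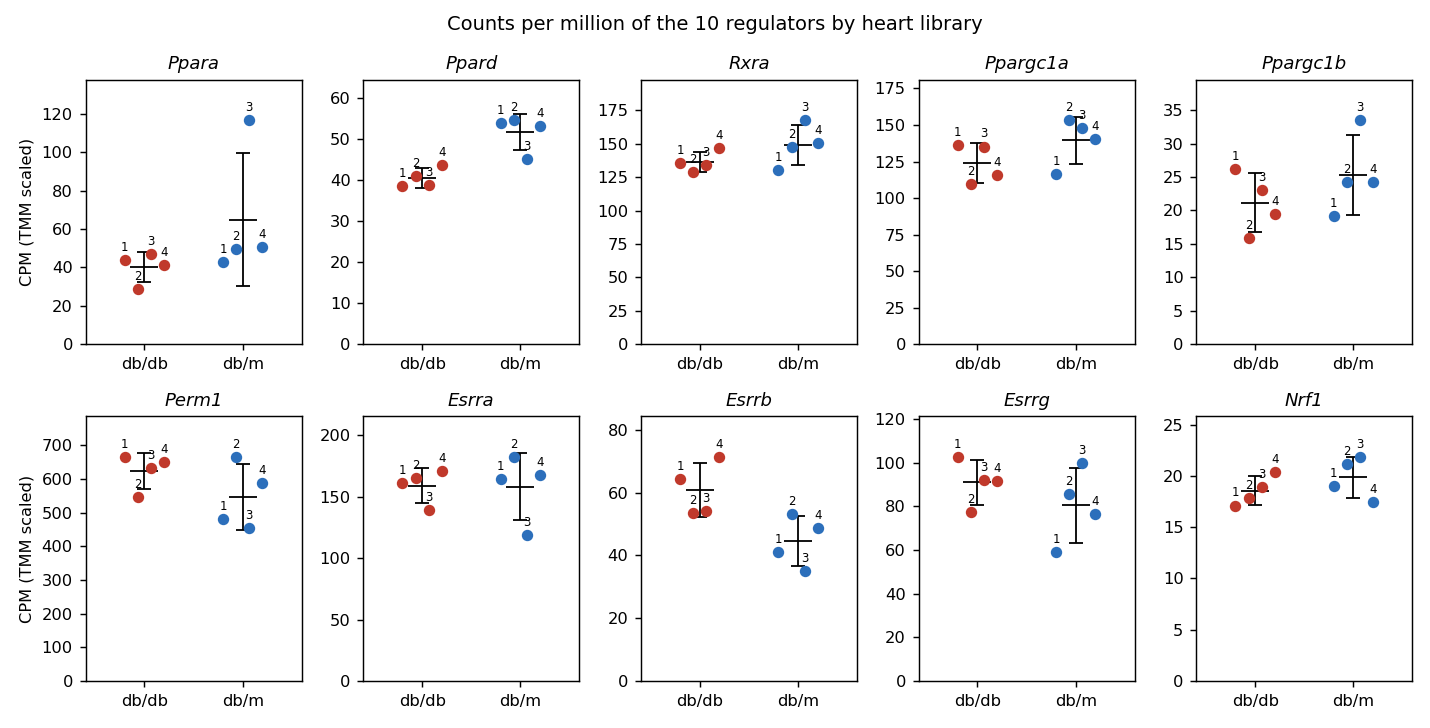
CPM of each of the 10 regulators on the vertical axis of its own panel, with db/db libraries at the left and db/m libraries at the right. Points are libraries with their replicate number, and bars are the mean and SD of 4 libraries. Only Ppard, with db/db up to 43.8 CPM and db/m from 45.0 CPM, and Esrrb, with db/db from 53.5 CPM and db/m up to 53.3 CPM, have groups that do not overlap.

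Esrrb, an estrogen-related receptor best known from stem cells and the inner ear (ENSMUSG00000021255, chromosome 12, 86361117 to 86521628, plus strand), had 64.4, 53.5, 54.2 and 71.5 CPM in db/db libraries 1 to 4. The db/m libraries 1 to 4 had 41.2, 53.3, 34.99 and 48.9 CPM. Every db/db value was above every db/m value, though the gap between db/db replicate 2 and db/m replicate 2 was small beside the spread in either group. Means were 60.9 ± 8.62 CPM in db/db and 44.6 ± 8.12 CPM in db/m. The edgeR log2 fold change was 0.45 (SE 0.16), which is 1.37-fold with an interval of 1.06 to 1.75. The unadjusted p was 0.0193 and the adjusted p 0.322. Without db/m replicate 3 the log2 fold change was 0.35 (adjusted p 0.281), and without replicates 1 and 3 it was 0.25 (unadjusted p 0.0957, adjusted p 0.575). The unadjusted edgeR p was 0.0538 without db/m replicate 1 (log2 fold change 0.42) and 0.0644 without db/db replicate 4 (log2 fold change 0.36).

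Esrra, the main partner of PGC-1-alpha on mitochondrial genes (ENSMUSG00000024955, chromosome 19, 6910977 to 6921813, minus strand), had 161, 166, 139 and 171 CPM in db/db libraries 1 to 4, against 164, 183, 119 and 168 CPM in db/m libraries 1 to 4. Values of the groups ran through each other, with both the highest and the lowest in db/m. Means were 159 ± 14.1 CPM in db/db and 158 ± 27.5 CPM in db/m. On the log2 scale the fold change was 0.01 (SE 0.15, adjusted p 0.984) and its interval 0.795 to 1.27-fold. Its sign turned in several fits, to -0.10 without db/m replicate 3 and -0.14 without replicates 1 and 3. Esrra shares 73 exon bases with Trmt112 on the opposite strand and 91 with Mir6990. As strand use is not stated, their reads could not be told apart there, but Trmt112 had 189 counts against 26605 of Esrra over the 8 libraries.

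Esrrg, the estrogen-related receptor of oxidative muscle and heart (ENSMUSG00000026610, chromosome 1, 187608791 to 188214885, plus strand), had 103, 77.4, 92.0 and 91.6 CPM in db/db libraries 1 to 4 and 59.1, 85.7, 99.97 and 76.7 CPM in db/m libraries 1 to 4. The groups overlapped, and the lowest value was in db/m replicate 1. Its log2 fold change was 0.18 (SE 0.17, adjusted p 0.626), with an interval of 0.872 to 1.47-fold. Without db/m replicate 3 it was 0.30 (unadjusted p 0.0486, adjusted p 0.376), and without replicates 1 and 3 it was 0.16. Leaving out db/m replicate 1 gave 0.06, leaving out db/db replicate 1 gave 0.12, and removing the length trend gave 0.29. Nrf1, the factor for respiratory chain genes (ENSMUSG00000058440, chromosome 6, 30047988 to 30153458, plus strand), ranged over 17.1 to 20.4 CPM in db/db and 17.4 to 21.9 CPM in db/m. It is a different gene from Nfe2l1, which shares the older name NRF1. Its log2 fold change was -0.10 (SE 0.13, adjusted p 0.738), with an interval of 0.763 to 1.15-fold, and turned to 0.09 when each library's length trend was removed.

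**Figure D2:**
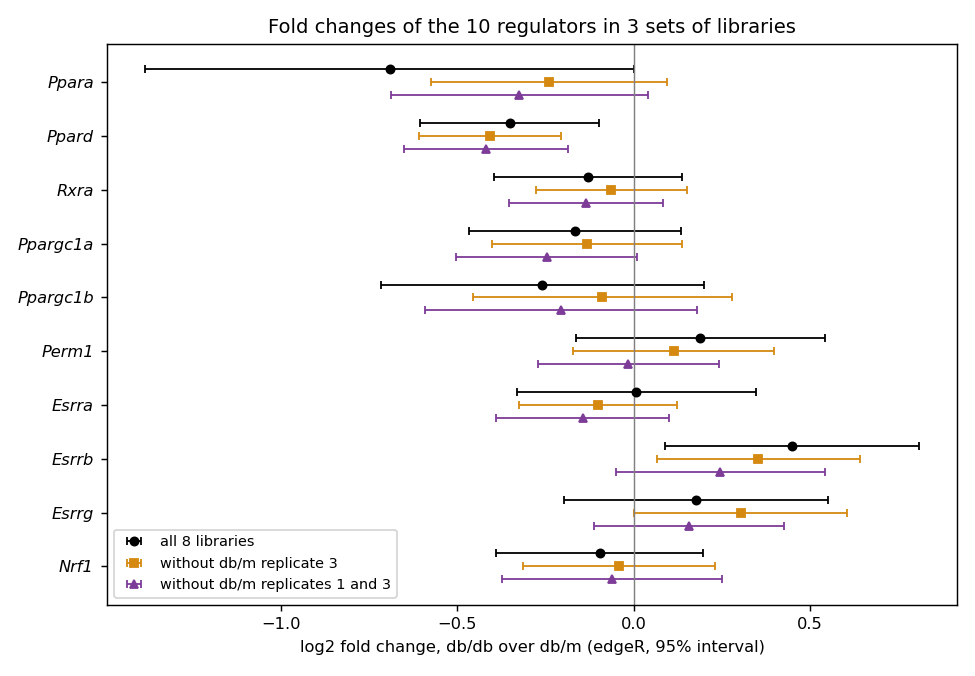
Log2 fold changes of the members, db/db over db/m, by edgeR on the horizontal axis, with 95% intervals, in all 8 libraries (circles), without db/m replicate 3 (squares) and without db/m replicates 1 and 3 (triangles). The Ppara value goes from -0.69 to -0.24 and -0.32 as those libraries are left out, while that of Ppard lies between -0.35 and -0.42.

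Without db/m replicate 3, edgeR called 0.600% of genes and 0 of 10 members, and 3 of 10 members (Ppard, Esrrb and Esrrg) had an unadjusted p under 0.05, against 13.2% of genes. Without db/m replicates 1 and 3 it called 0.256% of genes and 0 of 10 members. There, Ppard alone among the members had an unadjusted p under 0.05, against 10.7% of genes.

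Between genes, levels were compared as CPM per kilobase (kb) of exon length, averaged over the 8 libraries. Perm1 stood highest at 150.0 CPM per kb, above 97.3% of the tested genes. Esrra followed at 36.2, Rxra at 26.1, Ppargc1a at 20.01, Esrrg at 13.8, Ppara at 13.7, Esrrb at 8.72, Ppard at 6.14, Ppargc1b at 5.82 and Nrf1 at 1.87 CPM per kb. The ranges of neighbours over the 8 libraries were apart at 4 of the 9 steps. Those steps were Perm1 over Esrra (4.14 times), Rxra over Ppargc1a (1.31 times), Ppargc1a over Esrrg (1.45 times) and Ppargc1b over Nrf1 (3.11 times). The other 5 neighbours overlapped, and Esrrg and Ppara changed places when levels were taken as TPM over all genes. The receptor genes thus spanned a range from 6.14 to 36.2 CPM per kb, and the coactivator genes of the PGC-1 family were at 20.01 and 5.82.

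**Figure D3:**
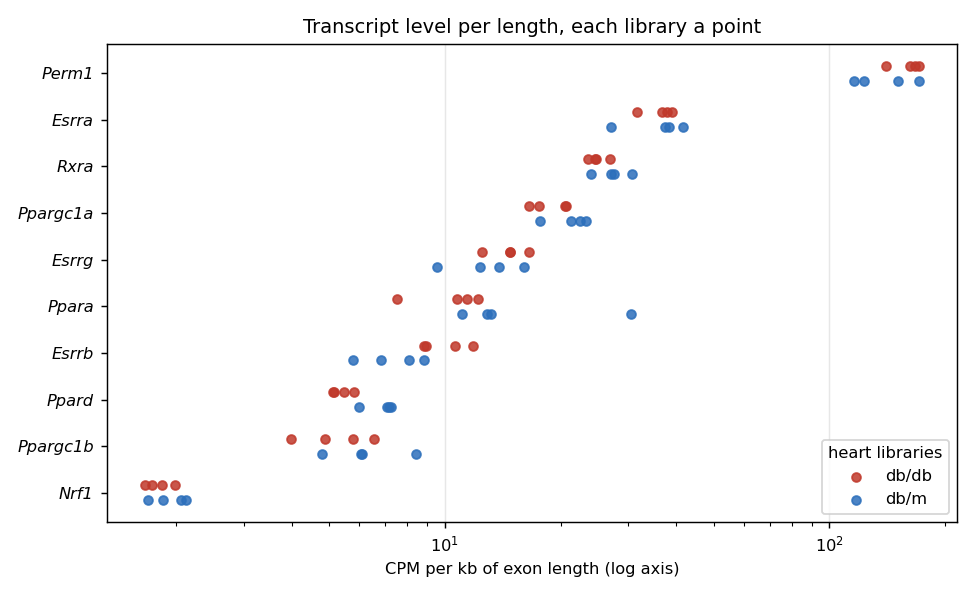
CPM per kb of exon length on a logarithmic horizontal axis for the 10 members, ordered by their mean from Perm1 (150.0) at the top to Nrf1 (1.87) at the bottom. Each point is a library, with db/db above db/m within a gene, and the single Ppara point at 30.4 is db/m replicate 3.

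Within families, the make-up of the summed level per length was given as a description. Esrra made up 59.5% ± 3.12 of the ERR sum in db/db and 63.7% ± 6.01 in db/m, Esrrg 24.0% ± 2.68 in db/db and 23.3% ± 6.61 in db/m, and Esrrb 16.5% ± 1.26 in db/db and 13.0% ± 0.937 in db/m. Ppara made up 44.8% ± 8.67 of the sum of the 3 PPAR genes in db/db and 51.8% ± 9.31 in db/m. Ppargc1a made up 67.2% ± 1.52 of the PGC-1 family sum, Pprc1 included, in db/db and 63.5% ± 3.15 in db/m. Rxra made up 39.2% ± 0.921 of the RXR sum in db/db and 47.1% ± 11.02 in db/m, where db/m replicate 3 held the highest share, 62.8%.

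Log2 ratios between related members within a library, per length, were compared in 3 pairs by exact two-sided permutation, whose smallest possible p is 0.0286. Ppargc1a over Ppargc1b was 1.85 ± 0.16 in db/db and 1.76 ± 0.23 in db/m, a difference of 0.09 (p = 0.629, exact). Esrra over Esrrg was 1.31 ± 0.23 in db/db and 1.49 ± 0.52 in db/m, a difference of -0.17 (p = 0.571, exact). Ppara over Ppard was 0.94 ± 0.35 in db/db and 1.17 ± 0.79 in db/m, a difference of -0.24 (p = 0.743, exact). Adjusted over the 3 comparisons by Benjamini-Hochberg, all exact p values were 0.743. The values of the groups overlapped in each pair. In db/m replicate 3 the Ppara to Ppard ratio was 5.07 on the linear scale, against 1.37 to 2.36 in db/db and 1.55 to 1.86 in the other db/m libraries.

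The partners that the members act with were examined through lists of textbook genes, to be read against the shares over all tested genes: 47.7% positive, and 5.12% higher and 7.84% lower at an unadjusted p under 0.05. These lists and those of target genes below were chosen with earlier results of these data known. Of 11 general coactivators 2 had a positive log2 fold change (median -0.24), and the unadjusted p was under 0.05 for 1 higher, Kat2b, and 1 lower, Pprc1. Pprc1, the third PGC-1 family gene, averaged 24.6 ± 3.01 CPM in db/db and 36.9 ± 4.24 CPM in db/m, with no overlap between the groups. Its log2 fold change was -0.59 (SE 0.14, edgeR adjusted p 0.190), and -0.50 both without db/m replicate 3 (adjusted p 0.0834) and without replicates 1 and 3 (adjusted p 0.173). By DESeq2 Pprc1 fell, with an adjusted p of 0.0157, and by limma-voom the adjusted p was 0.0531. Kat2b, an acetyltransferase, had a log2 fold change of 0.28 (adjusted p 0.363), but its value is uncertain because a near-identical pseudogene held 18475 counts against its own 16404. The nuclear receptor coactivator Ncoa6 had -0.33 and the acetyltransferase Ep300 -0.31 (adjusted p 0.448 and 0.474), and these values were -0.13 and -0.09 without db/m replicate 3.

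Of 11 corepressors and inhibitors 2 had a positive log2 fold change (median -0.31; 47.7% of all genes were positive), and 1 was higher and 1 lower at an unadjusted p under 0.05, against 5.12% and 7.84% of all genes. Hdac3, a histone deacetylase of corepressor complexes, averaged 32.9 ± 2.88 CPM in db/db and 23.3 ± 5.52 CPM in db/m (log2 fold change 0.50, adjusted p 0.327). Nr2f1, an orphan receptor, averaged 7.07 ± 1.06 CPM in db/db and 11.3 ± 4.19 CPM in db/m (log2 fold change -0.68, adjusted p 0.331), and had -0.38 without db/m replicate 3, where it reached 17.5 CPM. Kat2a, which acetylates PGC-1-alpha, had a log2 fold change of -0.31 (adjusted p 0.392). Nrip1, the corepressor RIP140, had 105 CPM in db/m replicate 3 against 38.3 to 47.8 CPM in db/db and 38.8 to 48.9 CPM in the other db/m libraries. The Nrip1 log2 fold change was -0.42 in all libraries (adjusted p 0.525) and 0.03 without that library. Ncor1, another corepressor, had -0.26 in all libraries and -0.04 without it. Without db/m replicate 3 the medians were -0.02 for the coactivators and 0.03 for the corepressors, so that the size of both medians depended on that library. Without replicates 1 and 3 the coactivator median was -0.09, with 4 of 11 positive. That of the corepressors was 0.0005, with 6 of 11 positive. With the length trend removed the medians were -0.04 for the coactivators and -0.09 for the corepressors.

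Of 13 upstream regulators, which are kinases, deacetylases and transcription factors that act on the circuit, 5 had a positive log2 fold change (median -0.16), with 1 higher and 2 lower at an unadjusted p under 0.05. The direction of that median turned, to 0.04 with 8 of 13 positive without db/m replicate 3 and to 0.06 with 9 of 13 positive without replicates 1 and 3. With the length trend removed the median was 0.03, with 7 of 13 positive. Klf15, a glucocorticoid-induced factor that acts with PPAR-alpha on lipid genes, had 67.3, 68.3, 68.9 and 58.6 CPM in db/db libraries 1 to 4 and 51.1, 42.1, 53.2 and 37.5 CPM in db/m libraries 1 to 4. Its db/db values were all above its db/m values. The fold change on the log2 scale was 0.52 (SE 0.14, edgeR adjusted p 0.243) in all libraries. Klf15 rose in the fits without db/m replicate 3 (log2 fold change 0.60, adjusted p 0.0489) and without replicates 1 and 3 (0.72, adjusted p 0.0348). It also rose by DESeq2 (adjusted p 0.0389) and by limma-voom (adjusted p 0.0280). Foxo1 had a log2 fold change of -0.51 (adjusted p 0.385) and -0.21 without db/m replicate 3, and Creb1, the CREB gene, -0.46 (adjusted p 0.352) and -0.24. Prkaa2, a catalytic subunit of the energy sensor AMPK, had -0.27 (adjusted p 0.400).

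Of 16 mitochondrial biogenesis factors 11 had a positive log2 fold change (median 0.06), with 0 higher and 1 lower at an unadjusted p under 0.05. Without db/m replicate 3 the median was 0.00 with 8 of 16 positive, and without replicates 1 and 3 it was -0.02 with 7 of 16 positive. With the length trend removed the median was 0.13, with 13 of 16 positive. Tfam, the factor that packs and transcribes mitochondrial DNA and a target of NRF1, averaged 48.4 ± 1.71 CPM in db/db and 45.3 ± 9.31 CPM in db/m (log2 fold change 0.10, adjusted p 0.770, and -0.02 without db/m replicate 3). Gabpb2, a subunit of the factor NRF2, had -0.49 (adjusted p 0.351) and -0.24 without db/m replicate 3. Alas1, the first enzyme of heme synthesis, had 0.42 (adjusted p 0.422) and 0.24 without db/m replicate 3. The values of Tomm20 (0.15) and Cycs (0.30, and 0.04 without db/m replicate 3) are uncertain because near-identical pseudogenes also held counts.

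**Figure D4:**
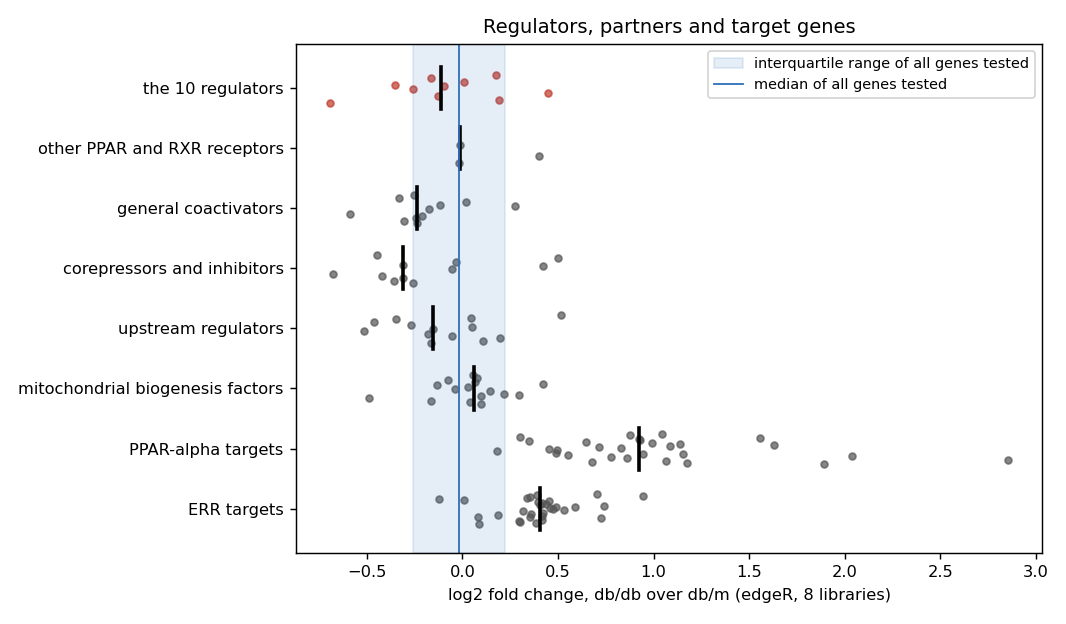
Log2 fold changes, db/db over db/m, of the members and of the genes on 7 lists of partners and targets, by edgeR on all 8 libraries. Points are genes, black bars are list medians, and the blue band and line are the interquartile range and the median of all 17411 tested genes. The PPAR-alpha targets (median 0.93) and the ERR targets (median 0.41) lie mostly to the right of the band, and the members (median -0.11) mostly within it.

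In the edgeR fit on all 8 libraries 0 of the tested target genes of the members were called, as was the case for the members. Of 33 PPAR-alpha target genes 29 were tested, and all 29 had a positive log2 fold change, with a median of 0.93. In all 8 libraries edgeR called 0 of them, with 26 at an unadjusted p under 0.05, all higher (5.12% of all genes were), and 16 with groups that did not overlap (9.65% of all genes). DESeq2 called 14 of the 29 targets, against 2.17% of all genes, and limma-voom 6, against 0.747%. The fit without db/m replicate 3, which called 0.600% of all genes, called 4, namely Txnip, Slc27a1, Acadm and Slc25a20, the last named after its values were seen, and the fit without replicates 1 and 3 called Txnip. The medians in these fits were 0.70 and 0.59, with 29 of 29 positive in both. With the length trend removed the median was 0.98, with 29 of 29 positive. Cyp4a10, Cyp4a14, Fgf21 and Vnn1 had too few counts to be tested. The list of targets was chosen with earlier results of these data known. Whether each listed gene, Txnip included, depends on PPAR-alpha in these hearts was not tested.

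Txnip, an inhibitor of thioredoxin and of glucose uptake, averaged 1007 ± 206 CPM in db/db and 452 ± 94.4 CPM in db/m (log2 fold change 1.16, SE 0.20, adjusted p 0.115). It rose in the fits without db/m replicate 3 (adjusted p 0.0316) and without replicates 1 and 3 (adjusted p 0.0415). Slc27a1, a fatty acid transporter, averaged 292 ± 57.7 CPM in db/db and 154 ± 15.7 CPM in db/m (log2 fold change 0.93, adjusted p 0.131). Acot2, a mitochondrial acyl-CoA thioesterase, had a log2 fold change of 1.63 (adjusted p 0.136), uncertain because it is near-identical to Acot1. Pdk4, the kinase that shuts off pyruvate oxidation, had 1224, 3492, 246 and 2500.1 CPM in db/db libraries 1 to 4 and 356, 1047, 395 and 740.4 CPM in db/m libraries 1 to 4. The lowest Pdk4 value of all was in db/db replicate 3, the groups overlapped, and the log2 fold change was 1.56 (SE 0.66, adjusted p 0.366).

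Of 31 ERR target genes, all tested, 30 had a positive log2 fold change, with a median of 0.41 in all libraries, 0.20 without db/m replicate 3 and 0.11 without replicates 1 and 3. With the length trend removed the median was 0.40, with 29 of 31 positive. In all 8 libraries edgeR called 0 of them and 4 had an unadjusted p under 0.05, all higher, against 5.12% of all genes. The groups did not overlap for 12 of the 31, against 9.65% of all genes. Leaving out db/m replicate 3 brought 12 targets below that unadjusted p, 10 on the higher side and 2 on the lower side. The share over all genes in that fit was 13.2%, with 1207 genes on the higher side and 1120 on the lower side. Among the 4 targets at an unadjusted p under 0.05 in all 8 libraries were Acadm (log2 fold change 0.94), Etfdh (0.70) and Etfa (0.74). Their edgeR adjusted p values in that fit were from 0.296 to 0.347. Their log2 fold changes were 0.70, 0.53 and 0.51 without db/m replicate 3, and 0.58, 0.42 and 0.32 without replicates 1 and 3. DESeq2 called 0 of the 31, while limma-voom (adjusted p 0.0440) and edgeR without db/m replicate 3 (adjusted p 0.0329) called Acadm alone. Acadm, medium-chain acyl-CoA dehydrogenase, is on both target lists, and Etfa and Etfdh pass electrons from fatty acid oxidation to the respiratory chain. The value of Acadm is uncertain because a near-identical pseudogene held 96183 counts against its own 106242.

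Mean log2 CPM over the 29 PPAR-alpha targets was 7.91, 8.32, 7.33 and 8.17 in db/db libraries 1 to 4, and 6.86, 7.30, 6.57 and 7.12 in db/m libraries 1 to 4. Every db/db library was above every db/m library, with db/db replicate 3 near the highest db/m library. The library with the highest target mean, db/db replicate 2, had the lowest Ppara level of all 8, and the library with the lowest target mean, db/m replicate 3, had the highest. Within db/db the order of Ppara levels was the reverse of the order of target means. In db/m libraries 1, 2 and 4 it was not, as replicate 1 was lowest in both, with Ppara at 42.7 CPM. Replicate 3 of db/m also carried the gene length trend, and a relation of Ppara to target level was not tested. Mean log2 CPM over the 31 ERR targets was 9.07, 9.07, 9.06 and 9.06 in db/db libraries 1 to 4 and 8.69, 9.02, 7.66 and 8.90 in db/m libraries 1 to 4. The db/db libraries were nearly equal and db/m replicate 3 was far below the rest. That library also held the lowest Esrra, Esrrb and Perm1 values.

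**Figure D5:**
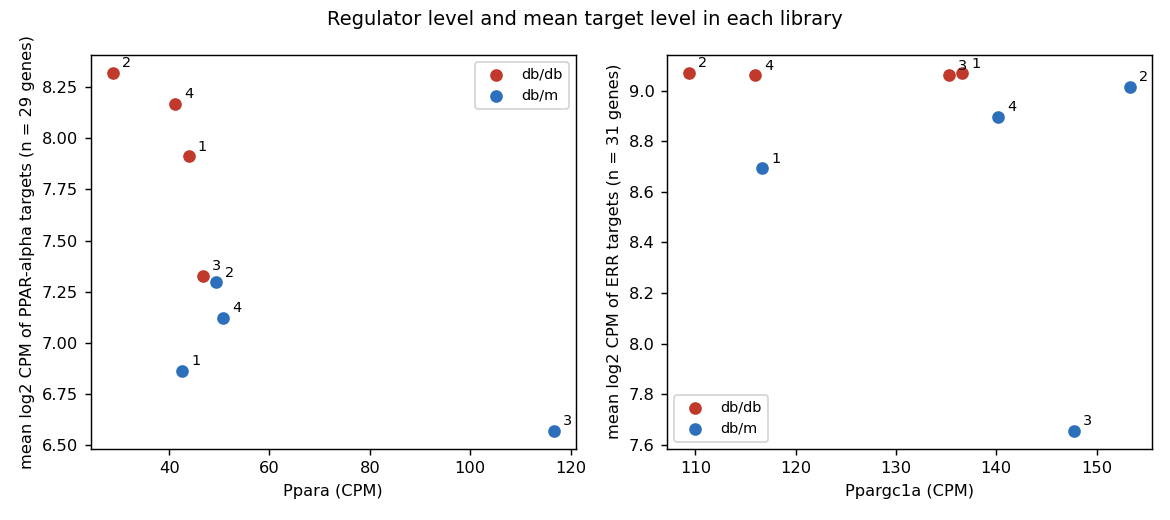
Mean log2 CPM of PPAR-alpha targets (29 genes) against Ppara CPM at the left, and of ERR targets (31 genes) against Ppargc1a CPM at the right. Each point is a library with its replicate number, red for db/db and blue for db/m. Target means are higher in db/db at both sides, and db/m replicate 3, with Ppara at 117 CPM, has the lowest target mean in both panels.

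Genes outside the 10 members whose pattern was most like a member's were found by Pearson's r of log2 CPM over the 8 libraries, among 12295 genes with a mean of at least 5 CPM. For Ppara these were Ankhd1 (0.99), Zfp974 (0.99) and Birc6 (0.99). For Ppargc1a they were Ifit1bl2 (0.96), Mmgt1 (0.96) and Plxnb1 (0.95), and for Perm1 Ttc30a1 (0.98), Asb8 (0.98) and Gys1 (0.97), the last being muscle glycogen synthase. For Esrra they were Map2k3os (0.99), Rxrb (0.99) and Tada3 (0.98). Without db/m replicates 1 and 3 the 12 correlations were 0.89 to 0.99 over 6 libraries. These are the highest of many pairs over few libraries that share depth and composition, and are given as a description. Rxrb is also on the list of related receptors.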

How the data were processed

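Gene counts were measured in 8 mouse heart libraries, 4 per genotype. The authors deposited raw counts of reads for each Ensembl gene, per the file headers. Per the labels' protocols, an NEBNext Ultra kit and 3 µg of RNA were used, and per the submitters' processing notes the genome was mm10. Aligner, counting tool and strand setting: not given in the sources used here. Symbols came from GENCODE M21 by identifier (55480 of 55573 found), and coordinates are those of the deposited table. Promoters came from RefSeq on GRCm38.p6, with 9 of 10 members matched.

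Counts were tested in edgeR 4.0.16 (R 4.3.3) with filterByExpr (minimum count 10, total 15), TMM factors, robust quasi-likelihood F tests, genotype as the only factor and Benjamini-Hochberg adjustment over 17411 genes. All tests were two-sided. The script was tested on simulated data. CPM is relative to the TMM-scaled library size, and log2 CPM used a prior count of 2. Within-library ratios used counts plus 0.5. Alternatives were DESeq2 1.42.0, limma-voom (limma 3.58.1), other normalisations and filters, a replicate block, a length correction and left-out libraries. Near-identical copies were sought with BLAST, at 90% identity over 100 bases for the members. For genes on the lists only stretches of at least 95% identity over at least 300 bases were kept. Among members the longest stretch shared with another gene was 151 bases, and the highest identity of any such stretch was 91.5%.

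The members, the lists and the rule for named genes were chosen with earlier results of these data known. The rule names all members, up to 4 genes per list with the smallest unadjusted p, Tfam, Pparg, Pdk4, Ncor1 and Nrip1, the 3 genes most like each of 4 members, and the markers of a library that stands apart. A few genes that this rule takes in are not reported here.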

Additional observations from a re-analysis of the deposited data

Results flagged for a closer look

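In the db/m group 3 values lay far from the other libraries of the group, out of 42 groups of 4 libraries examined, and chance alone marks about 1 group in 20. Ppara had 117 CPM in db/m replicate 3, against 42.7 to 50.7 CPM in the other db/m libraries and 28.8 to 46.8 CPM in db/db. Ppard had 45.0 CPM in the same library, against 53.2 to 54.6 CPM in the other db/m libraries. The log2 ratio of Ppara to Ppard, built from the same counts, was 2.34 there, against 0.63 to 0.90 in the other db/m libraries. In the same library the marker sums of adipocytes and atrial cardiomyocytes were the highest of the 8, and long genes were high and short genes low. Their part in these values was not tested.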

How the results depend on the processing

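Of 180 member log2 fold changes under the alternatives, 173 kept the direction and side of the threshold of the value reported, 7 reversed and 0 passed the threshold. Genes called by edgeR numbered 1 of all tested genes, against 377 by DESeq2, 130 by limma-voom, 27 with no filter, 13 with the length trend removed, 46 without db/m replicates 1 and 3, and 0 to 106 with each library left out in turn, the highest without db/m replicate 3. Members at an unadjusted p under 0.05 numbered 2, against 1 without db/m replicates 1 and 3 and 1 to 3 with each library left out. Perm1 reversed to -0.015 without db/m replicates 1 and 3, and Nrf1 to 0.092 with the length trend removed. Esrra reversed to -0.095 by limma-voom and -0.14 without replicates 1 and 3, and ranged from -0.10 (without db/m replicate 3) to 0.086 with single libraries left out, with -0.010 when db/db replicate 2 was left out and -0.026 when db/db replicate 4 was. The difference in Ppargc1a over Ppargc1b reversed to -0.022 without db/m replicates 1 and 3 and ranged from -0.027 (without db/m replicate 3) to 0.15 with single libraries left out. That in Ppara over Ppard reversed to 0.073 without both and ranged from -0.42 (without db/m replicate 1) to 0.15 (without db/m replicate 3). The difference in Esrra over Esrrg ranged from -0.42 (without db/m replicate 3, exact p = 0.0857) to -0.012 (without db/m replicate 1). The cause was not tested. Same-number libraries did not deviate together (correlations -0.09, 0.06, 0.03 and 0.02), and only number 3 was most like its own number. A pairing is not excluded by this, as db/m replicate 3 stood apart from the rest of its group. With the replicate block 5 genes and 0 members were called. Precision is limited by 4 libraries per genotype: the 95% interval of Ppargc1a was 0.724 to 1.10-fold on 2173 or more counts per library.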
